A study of Mus musculus with 31 samples.

Results

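The mouse embryonic fibroblasts (MEFs, connective tissue cells grown out of embryos) described here received a retrovirus for GFP alone, as the virus control of a reprogramming experiment, and the question is how they changed late in culture. The 2 arrays of GFP cells from day 8 and the 1 array from day 12 were compared with the 2 arrays of GFP cells from day 5, which makes 5 of the 31 arrays of the series. Per the labels' protocols, all MEFs grew in DMEM with foetal bovine serum and the viruses were added at day 0. GFP arrays of days 1 and 3, and arrays of uninfected MEFs at day 0, were used to place these days in the whole course. Cells that received the reprogramming factors c-Myc, Klf4, Sox2 and Oct4 by retrovirus (4F cells), 2 arrays each on days 8 and 5, were used to ask whether cells with the factors changed alike over the same days. The labels do not give the strain, the embryos, the passage, the promoter of the viral GFP or the share of cells infected, so uninfected cells may be among those measured. Values are log2 signals of 19938 genes with a single symbol in the annotation, and a log2 difference of 1 is a 2-fold difference.

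Embryonic fibroblasts divide quickly after plating and slow down as a culture fills and ages. Their cell cycle genes are switched in blocks: E2F factors drive genes for DNA replication at the entry into S phase, and the genes for mitosis are expressed later through the CDE and CHR promoter elements and NF-Y sites. Lack of amino acids and other stresses act through the transcription factor ATF4, which turns on enzymes of serine, asparagine and one-carbon metabolism, amino acid transporters and tRNA synthetases. Fibroblasts also secrete the matrix around them, including small leucine-rich proteoglycans that bind collagen fibrils, and can make complement factors and acute phase proteins, which the liver makes for the blood in inflammation.

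The cells kept the markers of fibroblasts. The 15 measured fibroblast markers averaged 11.3 to 11.4 in the arrays of days 8 and 12, against 11.0 to 11.2 in those of day 5. By their mean over these 5 arrays, 15 of 15 lay above the median gene of the same arrays. Singly, 9 of them were higher late and 6 lower. The only 1 that passed the limma test described below was a fall, that of Twist2 (log2 -0.59, adjusted p = 0.0414). Markers of other cell types above that median were 9 of 16 for smooth muscle and pericytes, 5 of 15 for cartilage and bone, 5 of 19 for endothelium and 5 of 22 for neural cells. They were 4 of 23 each for epithelium and skeletal muscle, 2 of 14 for adipocytes and 2 of 27 for macrophages. Of the markers of lymphocytes and mast cells, of red blood cells and of pluripotent cells 0 lay above it. The mean over the macrophage markers was 5.48 to 5.56 late, against 5.39 to 5.41 on day 5, and its part in the results below was not tested. In RNA from whole cultures, fewer cells of a type and less RNA per cell cannot be told apart, and this holds for every result below.

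The 2 GFP day 8 arrays lie far apart, which touches the results. GFP day 8 replicate 2 differed from GFP day 8 replicate 1 by 2-fold or more in 386 genes, 282 of them higher in replicate 2, whereas the 2 day 5 arrays differed that far in 51 genes. Ptgs2, the inducible cyclooxygenase, read 7.34 in day 8 replicate 1 and 12.34 in day 8 replicate 2. The matrix and growth signalling protein gene Ccn2 read 8.19 and 13.12 in these arrays, and the immediate-early nuclear receptor gene Nr4a1 read 7.19 and 11.30. In all 3 genes replicate 2 was far above every other GFP array of days 5 to 12, while replicate 1 lay within 1 of the day 12 array. In other genes day 8 replicate 1 was the array apart. Tagln read 8.82 in replicate 1 and 11.48 in replicate 2, 11.11 on day 12, and 11.32 and 11.80 on day 5. Actg2 read 6.49 and 9.37 on day 8, 9.14 on day 12, and 8.89 and 9.95 on day 5. Across all genes the day 12 array correlated about equally with the day 8 arrays, at 0.985 to 0.986. All of these genes were picked after their values were seen. The 4F day 8 arrays, which carry the same replicate numbers, differed by 2-fold or more in 414 genes, and Nr4a1 read 7.92 in replicate 1 and 10.97 in replicate 2 there. Counts are therefore also given without day 8 replicate 2 where that changes them. The array of day 12 has no replicate and no replicate number, and all arrays without a number form a set of their own, so day 12 and that set cannot be told apart.

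**Figure D1:**
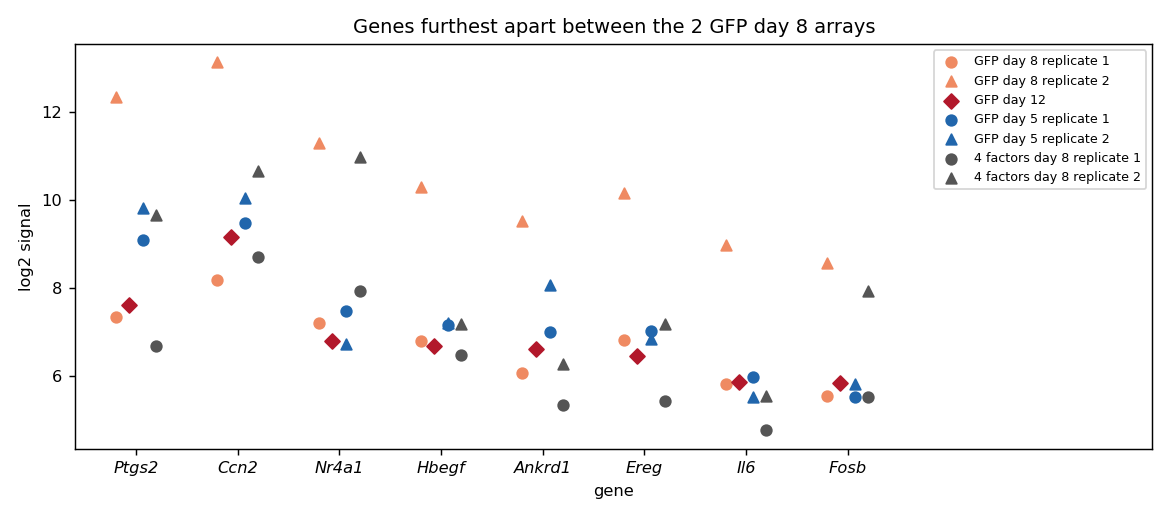
Log2 signals of the 8 genes furthest above replicate 1 in GFP day 8 replicate 2, in the GFP arrays of days 8, 12 and 5 and the 4F arrays of day 8, 1 point per array. Triangles are replicate 2, and GFP day 8 replicate 2 is the highest point for each gene (Ptgs2 at 12.34, against 7.34 in replicate 1).

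On days 8 to 12, 710 of 19938 genes differed from day 5 at an adjusted p under 0.05 in limma, which is 3.56% of the genes tested. Of these, 292 genes (1.46%) were higher on days 8 to 12 and 418 (2.1%) were lower. Rises were larger, with a median of 1.77-fold among the 292, against 1.51-fold among the 418 falls. A change of 2-fold or more was reached by 105 of the rises and 66 of the falls. All 3 late arrays lay above both day 5 arrays for 286 of the 292 rises, beside 14.2% of all genes. They lay below both for 418 of the 418 falls, beside 16.6% of all genes. The calls rest on the same arrays, so called genes are likely to show such a gap. With the replicate number as a block the count was 1525 genes (7.65%), 568 higher (2.85%) and 957 lower (4.8%), and all 710 were among them. That block sets replicate 2 against all other arrays, so day 12, which has no number, was treated like a replicate 1 array. Every block count and block p-value of the late comparison below rests on this choice. Without day 8 replicate 2 it was 918, without day 12 it was 333, without day 5 replicate 1 it was 168, and without day 5 replicate 2 it was 355. The calls also rest on a spread estimated from the 24 arrays of the 12 groups with 2 arrays, to which day 12 and the other single arrays add nothing. A fit of the 9 GFP arrays gave 60 genes, and a fit of the 5 arrays alone gave 0, with 2806 at an unadjusted p under 0.05.

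The median change of the 292 rises was 0.80 within replicate 1 and 0.62 within replicate 2 from day 5 to day 8, and 1.08 from day 5 to day 12 (log2). For the 418 falls the medians were -0.67, -0.46 and -0.66. Day 8 alone against day 5 gave 333 genes (1.67%), 118 higher (0.592%) and 215 lower (1.08%). With the block it gave 885 (4.44%), 297 higher (1.49%) and 588 lower (2.95%). Without day 8 replicate 1 the count was 157, without day 8 replicate 2 it was 635, and without day 5 replicate 1 and 2 it was 56 and 134. Leaving out day 12 in this way kept 114 of the 292 rises and 209 of the 418 falls.

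Of the 79 genes named below by the rule for named genes in the late comparison, 30 passed without day 5 replicate 1, 40 without day 5 replicate 2, 44 without day 12, 63 without day 8 replicate 1 and 77 without day 8 replicate 2. Whichever of the 5 arrays was left out, 19 of them passed. Among these were 10 of the 24 largest changes, the rises of Reg3g, Il33, Serpina3n, Kera and Ifi205 and the falls of Asns, Mthfd2, Psat1, Shmt2 and Angptl7. The other 9 were Cxcl15, Epyc, Podn and Gpx3 among the rises and Dkc1, Nop56, Wdr12, Mcm7 and H2bc18 among the falls. Each of the remaining genes of the 79 lost its call without at least 1 of the arrays. The 24 largest changes were chosen among called genes whose late arrays all lie beyond both day 5 arrays. In those genes, a gap between late and day 5 arrays therefore follows from the choice.

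**Figure D2:**
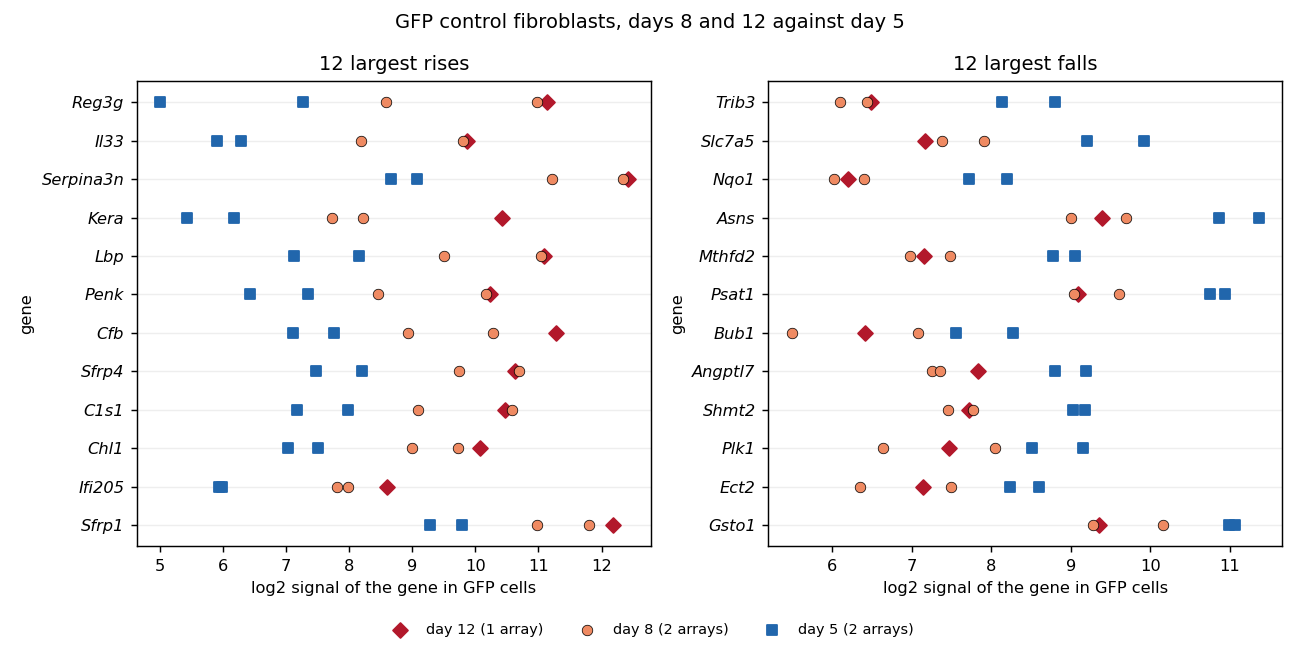
Log2 signal (horizontal axes) of the 12 largest rises and the 12 largest falls of GFP cells on days 8 to 12 against day 5, 1 point per array (diamonds day 12, circles day 8, squares day 5). In each row the day 5 squares lie apart from the late points because the genes were chosen that way. Reg3g, for example, lies at 8.59 to 11.14 late, against 5.00 and 7.26 on day 5.

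Genes of cell division were lower on days 8 to 12. Of 62 measured genes of mitosis and the spindle 30 fell and 0 rose, with a median of -0.92 on the log2 scale beside 0.00 over all genes, and each of the 62 had a negative value. Bub1, a kinase of the spindle checkpoint, read 5.49 and 7.08 on day 8 and 6.41 on day 12, against 8.28 and 7.55 on day 5. It was 3.00-fold lower late (log2 -1.59 ± 0.33 SE, adjusted p = 0.0163). Of its late arrays day 8 replicate 1 was lowest by a wide margin. Plk1, the polo-like kinase that drives entry into mitosis, read 6.64 and 8.05 on day 8 and 7.47 on day 12, against 9.15 and 8.51 on day 5, 2.73-fold lower late (adjusted p = 0.0181). Ect2, the exchange factor that starts cytokinesis, read 6.35, 7.50 and 7.13 late, against 8.60 and 8.24 on day 5 (log2 -1.42 ± 0.29 SE, adjusted p = 0.0148). Ncapg, a subunit of the condensin that compacts chromosomes, read 5.67, 6.82 and 6.22 late, against 7.85 and 7.37 on day 5 (log2 -1.37 ± 0.26 SE, adjusted p = 0.0097). In each of these genes day 8 replicate 1 was the lowest array and day 8 replicate 2 the highest of the late arrays.

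The size of this fall differed between the replicate numbers. The median of the mitosis list from day 5 to day 8 was -1.70 within replicate 1 and -0.27 within replicate 2. It was -0.82 from day 5 to day 12. Without day 8 replicate 2 the list had 52 members lower, without day 8 replicate 1 it had 16, without day 12 it had 17, and without day 5 replicate 1, the higher of the day 5 arrays, 0 members passed while the median was -0.69. Of 45 genes of DNA replication 14 fell and 0 rose, with a median of -0.58. Uhrf1, which recruits the maintenance DNA methyltransferase to new DNA, read 6.27 and 6.89 on day 8 and 6.94 on day 12, against 8.24 and 7.55 on day 5. It was 2.29-fold lower late (log2 -1.20 ± 0.20 SE, adjusted p = 0.00409). Mcm7, a subunit of the replicative helicase, read 7.61, 7.86 and 7.57 late, against 9.01 and 8.60 on day 5, a 2.18-fold difference (adjusted p = 0.00136). Its partners Mcm2 and Mcm6 were each 1.86-fold lower (adjusted p = 0.0432 and 0.024), and neither passed without day 8 replicate 1 or after quantile normalization. The block gave 27 replication genes lower. The count was 7 without day 12, 6 without day 8 replicate 1 and 1 without day 5 replicate 1.

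Of 22 replication-dependent histone genes 3 fell and 0 rose, and 1 fell without day 5 replicate 1. With the block 12 fell and 1, H1f2, rose. H1f5, a linker histone, was 2.15-fold lower late, H2bc18 1.89-fold and H2ac15 1.89-fold (adjusted p = 0.0176, 0.000887 and 0.0176). Histone genes are close copies of each other, so their probe sets may share signal. Of 28 genes for cyclin-dependent kinase inhibitors and p53 targets 0 rose and 2 fell. Those were Sesn2, a stress gene that restrains mTORC1 and is also a target of ATF4, at log2 -1.14 ± 0.23 SE (adjusted p = 0.0146), and Gtse1, a mitotic microtubule protein, at -0.89 ± 0.18 SE (adjusted p = 0.0146). The cyclin-dependent kinase inhibitor gene Cdkn1c, the highest of that list and picked after its value was seen, differed by 0.99 and did not pass. The block gave 1 rise and 3 falls in that list, and the rise was Cdkn2a, which encodes cyclin-dependent kinase inhibitor 2A, at a log2 difference of 0.41 (adjusted p = 0.28, and 0.0242 with the block). H1f2 and Cdkn2a were picked after their values were seen.

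Promoters of Plk1 and Ncapg are shown because mitosis genes share letters there that the choice of the list did not use. Sequences are from RefSeq on GRCm38.p6, from 250 bases before to 50 after the start of the gene, written 5′ to 3′ on the strand of the gene. Capitals mark TTTGAA, the core of the CHR element, and CCAAT, the letters of the NF-Y site, on either strand (ATTGG is CCAAT on the other strand). Plk1 lies at chr7:122159185-122159484 on the forward strand, with TTTGAA starting at base 31 after the start and CCAAT at base -14. Ncapg lies at chr5:45669675-45669974 on the forward strand, with TTTGAA starting at base -30 and CCAAT, read on the reverse strand, at base -176.
Plk1: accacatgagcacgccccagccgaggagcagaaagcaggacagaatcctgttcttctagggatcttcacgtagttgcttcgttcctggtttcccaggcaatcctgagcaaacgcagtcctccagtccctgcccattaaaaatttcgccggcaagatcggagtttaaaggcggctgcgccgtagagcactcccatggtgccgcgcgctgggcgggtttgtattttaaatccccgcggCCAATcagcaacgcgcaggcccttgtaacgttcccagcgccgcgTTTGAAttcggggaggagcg
Ncapg: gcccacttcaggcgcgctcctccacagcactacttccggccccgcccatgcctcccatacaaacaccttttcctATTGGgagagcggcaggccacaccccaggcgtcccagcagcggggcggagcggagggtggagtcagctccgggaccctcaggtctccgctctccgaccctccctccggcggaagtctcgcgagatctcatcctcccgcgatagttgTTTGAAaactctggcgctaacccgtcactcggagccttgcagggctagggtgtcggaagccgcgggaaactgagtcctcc
TTTGAA or TTCGAA on either strand was present in the windows of 40 of 53 measured mitosis genes that have an entry (75.5%), of 7 of 37 replication genes (18.9%), and in 19.2% of all 32851 windows of that length. CCAAT was present for 37 of 53 mitosis genes (69.8%) and 22 of 37 replication genes (59.5%), against 37.4% of all windows. Of 2 lists described below, it was present for 14 of 25 amino acid stress genes (56%) and 7 of 29 acute phase and inflammatory genes (24.1%). A high share of CCAAT was thus not limited to genes of cell division. A gene counted if any of its windows matched, with 57 windows for the 53 mitosis genes and 43 for the 37 replication genes. The share of all windows counts each window singly, so the gene shares can lie higher for that reason. Among the called mitosis genes 22 of 25 had TTTGAA or TTCGAA. A match of letters is a description of the sequence.

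Genes for the assembly of ribosomes in the nucleolus were lower as well, by nearly the same amount in both replicate numbers. Of 51 measured genes 14 fell and 0 rose, 47 had all late arrays below both day 5 arrays (16.6% of all genes do), and the median was -0.47. Within replicate 1 and replicate 2 the medians from day 5 to day 8 were -0.44 and -0.43. Nop56, a core protein of the box C/D ribonucleoproteins that guide rRNA methylation, read 9.20 and 8.94 on day 8 and 8.68 on day 12, against 9.82 and 9.91 on day 5. It was 1.89-fold lower late (log2 -0.92 ± 0.11 SE, adjusted p = 0.0004). Dkc1, the pseudouridine synthase dyskerin, read 7.23, 7.06 and 7.15 late, against 8.09 and 8.01 on day 5 (log2 -0.90 ± 0.11 SE, adjusted p = 0.0004). The late arrays of both genes lay close together and well under day 5. Wdr12, a factor of the large ribosomal subunit, was 1.90-fold lower and Utp20, of the small subunit processome, 1.75-fold (adjusted p = 0.00188 and 0.0331). The block gave 30 members lower. The count was 7 without day 12, 4 without day 5 replicate 1 and 6 without day 5 replicate 2.

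Genes of amino acid supply were lower, with Trib3 and Slc7a5 the largest falls of the named genes. Of 29 measured genes of the amino acid stress response 12 fell and 0 rose, each of the 29 had a negative value, and the median was -0.83. Trib3, a pseudokinase that ATF4 induces, read 6.10 and 6.44 on day 8 and 6.48 on day 12, against 8.14 and 8.80 on day 5. It was 4.38-fold lower late (log2 -2.13 ± 0.43 SE, adjusted p = 0.0133). Slc7a5, a subunit of the large neutral amino acid transporter, read 7.38, 7.90 and 7.16 late, against 9.21 and 9.92 on day 5, 4.24-fold lower (adjusted p = 0.00829). The late values of both genes lay in a narrow band more than 1 below the lower day 5 array. Asns, asparagine synthetase, read 9.0 and 9.70 on day 8 and 9.39 on day 12, against 10.87 and 11.37 on day 5, 3.37-fold lower late (log2 -1.75 ± 0.25 SE, adjusted p = 0.0019).

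Enzymes of serine and mitochondrial one-carbon metabolism moved the same way. Psat1, the aminotransferase of serine synthesis, read 9.04, 9.60 and 9.09 late, against 10.75 and 10.94 on day 5 (log2 -1.60 ± 0.21 SE, adjusted p = 0.000887). Mthfd2, a mitochondrial folate enzyme, read 6.98, 7.48 and 7.15 late, against 8.78 and 9.05 on day 5 (log2 -1.71 ± 0.26 SE, adjusted p = 0.0028). Shmt2, the mitochondrial serine hydroxymethyltransferase, read 7.45, 7.77 and 7.72 late, against 9.03 and 9.18 on day 5 (log2 -1.45 ± 0.22 SE, adjusted p = 0.00307). In all 3 enzymes each late array lay more than 1 below the lower day 5 array. Atf4 itself, picked after its value was seen, differed by -0.30 and did not pass, and its activity is largely set at translation. The medians of the list from day 5 to day 8 were -0.70 within replicate 1 and -1.02 within replicate 2. The count was 12 without day 8 replicate 2, 8 without day 5 replicate 1 and 4 without day 5 replicate 2.

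Promoters of Asns and Trib3, members with large falls, carry the letters of the C/EBP-ATF response element, which ATF4 binds with a C/EBP partner. Capitals mark TGATGNAA, or its reverse complement. Sequences are again RefSeq windows on GRCm38.p6. Asns lies at chr6:7693160-7693459 on the reverse strand, with the match at bases -23 to -16 from the start. Trib3 lies at chr2:152344011-152344310 on the reverse strand, with the match at bases 15 to 22 after the start, on the strand opposite to the gene.
Asns: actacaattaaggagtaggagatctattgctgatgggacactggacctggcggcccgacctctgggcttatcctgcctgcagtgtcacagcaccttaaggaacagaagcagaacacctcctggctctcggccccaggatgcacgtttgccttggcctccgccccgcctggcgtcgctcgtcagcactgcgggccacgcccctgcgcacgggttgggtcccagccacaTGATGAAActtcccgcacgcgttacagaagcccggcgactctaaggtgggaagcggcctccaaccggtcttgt
Trib3: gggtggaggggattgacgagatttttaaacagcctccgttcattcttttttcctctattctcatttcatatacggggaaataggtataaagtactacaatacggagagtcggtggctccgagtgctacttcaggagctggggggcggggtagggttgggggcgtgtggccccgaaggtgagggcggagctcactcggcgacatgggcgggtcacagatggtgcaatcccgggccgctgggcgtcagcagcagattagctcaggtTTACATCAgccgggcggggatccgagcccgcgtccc
TGATGNAA on either strand was present for 9 of 25 measured members with an entry (36%), for 4 of the 11 that fell (Asns, Gars, Trib3 and Vldlr), and in 3.97% of all windows. Here too a gene counted if any of its windows matched (30 windows for the 25 genes), while the last share is per window.

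Other large falls lay outside these groups. Nqo1, the quinone reductase controlled by NRF2, read 6.02 and 6.39 on day 8 and 6.19 on day 12, against 8.20 and 7.72 on day 5, 3.38-fold lower late (adjusted p = 0.0256). Gsto1, a glutathione transferase, read 9.28, 10.16 and 9.35 late, against 11.06 and 10.98 on day 5, 2.68-fold lower (adjusted p = 0.0206). Angptl7, a secreted angiopoietin-like protein, read 7.26, 7.35 and 7.83 late, against 9.19 and 8.80 on day 5, 2.85-fold lower (adjusted p = 0.00243). That no late array of these 3 genes reached the day 5 values follows from how they were chosen. Nqo1 was the single fall among 34 antioxidant and detoxification genes, of which 4 rose: Cyp7b1, an oxysterol hydroxylase (3.20-fold), Gpx3, the secreted glutathione peroxidase (2.84-fold), Mgst1 (1.85-fold) and Gstt1 (1.63-fold), with adjusted p of 0.0181, 0.00136, 0.0166 and 0.0101. The block gave 7 higher and 4 lower in that list, and 2, 2 and 1 rose without day 12, day 5 replicate 1 and day 5 replicate 2.

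**Figure D3:**
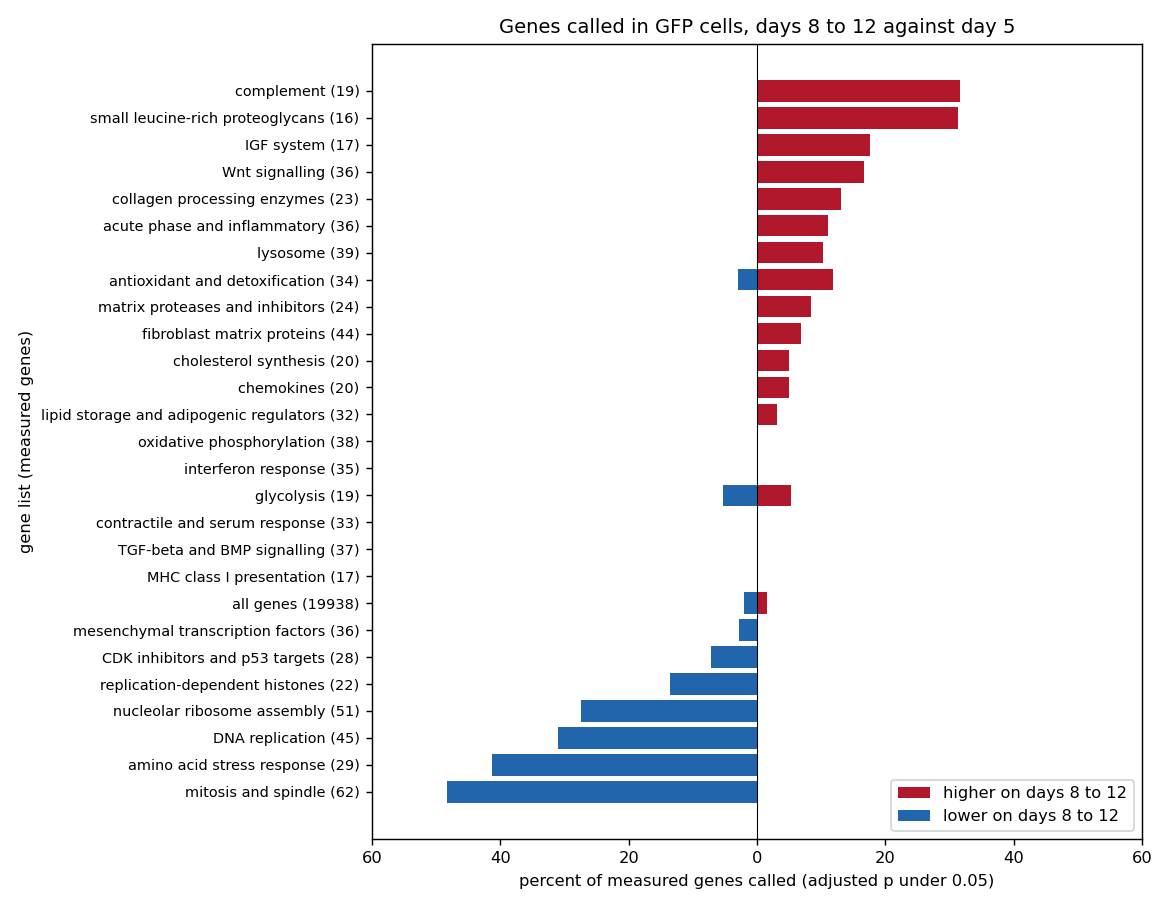
Percent of the measured genes of each list (and of all genes) called higher, to the right, or lower, to the left, in GFP cells on days 8 to 12 against day 5, with the number of measured genes in brackets. The mitosis list has 30 of 62 lower and the complement list 6 of 19 higher, beside 1.46% higher and 2.1% lower among all genes.

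Genes of inflammation were among the largest rises. Of 36 acute phase and inflammatory genes 4 rose and 0 fell, with a median of 0.52. Il33, a cytokine of the interleukin-1 family held in the nucleus, read 9.80 and 8.19 on day 8 and 9.87 on day 12, against 6.28 and 5.90 on day 5. It was 9.16-fold higher late (log2 3.20 ± 0.30 SE, adjusted p = 6.97e-05). Serpina3n, an inhibitor of serine proteases, read 12.34, 11.21 and 12.41 late, against 9.07 and 8.67 on day 5, 8.69-fold higher (log2 3.12 ± 0.46 SE, adjusted p = 0.00232). Lbp, the binding protein for bacterial lipopolysaccharide, read 11.05, 9.51 and 11.09 late, against 8.15 and 7.12 on day 5, 7.53-fold higher (adjusted p = 0.00447). In these genes day 8 replicate 2 was the lowest late array. Socs3, the feedback inhibitor of cytokine signalling, was 1.62-fold higher (adjusted p = 0.0422). Without day 5 replicate 2, 2 of the 36 rose. Il6 (1.13), Lcn2 (1.37), Saa3 (1.52), Hp (1.82) and Steap4 (2.04) of this list, picked after their log2 differences were seen, did not pass. Of the late arrays only day 8 replicate 2 was high for Il6, at 8.96. Day 8 replicate 1 and day 12 read 5.81 and 5.87 for it, within its day 5 values of 5.98 and 5.52.

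Reg3g, a secreted lectin that kills bacteria and the largest rise of all, read 10.97 and 8.59 on day 8 and 11.14 on day 12, against 7.26 and 5.00 on day 5 (log2 4.10 ± 0.58 SE, adjusted p = 0.00208). The replicates of each day differed by more than 2, replicate 2 being the lower on both days. Of 20 chemokine genes Cxcl15 alone rose (2 with the block). It read 6.39, 6.97 and 8.07 late, against 5.27 and 5.56 on day 5 (log2 1.72 ± 0.13 SE, adjusted p = 5.88e-06). Of 35 interferon response genes and of 17 genes of MHC class I presentation 0 passed, with medians of 0.09 and 0.17. Ifi205, of a family of interferon-inducible DNA sensors with close copies, was outside that list and read 7.81, 7.97 and 8.60 late, against 5.98 and 5.93 on day 5, 4.51-fold higher (adjusted p = 0.000501).

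Complement genes rose in part. Of 19 measured genes 6 rose and 0 fell (Cfb, C1s1, Serping1, C1ra, C2 and Cfi), with a median of 0.26. Cfb, factor B of the alternative pathway, read 10.28 and 8.92 on day 8 and 11.28 on day 12, against 7.76 and 7.11 on day 5. It was 6.62-fold higher late (log2 2.73 ± 0.59 SE, adjusted p = 0.0191). C1s1, a protease of the classical pathway, read 10.58, 9.09 and 10.47 late, against 7.99 and 7.18 on day 5, 5.51-fold higher (adjusted p = 0.00566). Its partner C1ra was 2.73-fold higher and Serping1, the C1 inhibitor, 4.08-fold (adjusted p = 0.0146 and 0.033). C1s1 and C1ra have near-identical copies in the mouse, whose signal may be shared. The macrophage genes C1qa, C1qb and C1qc, which make the recognition protein of the same pathway, differed by -0.01, -0.01 and 0.21 and did not pass. The count was 8 without day 8 replicate 2, 3 without day 12, 1 without day 5 replicate 1 and 3 without day 5 replicate 2, and the block gave 8 higher and 1 lower.

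Small leucine-rich proteoglycans, which space and bind collagen fibrils, rose in 5 of 16 measured genes, with 0 falls, a median of 0.62 and a positive value in each of the 16. Kera, keratocan of the corneal stroma, read 8.22 and 7.73 on day 8 and 10.41 on day 12, against 6.17 and 5.43 on day 5. It was 7.96-fold higher late (log2 2.99 ± 0.17 SE, adjusted p = 4.17e-07). Epyc, epiphycan of growth cartilage, read 7.43, 7.34 and 8.76 late, against 6.27 and 5.41 on day 5, 4.03-fold higher (adjusted p = 2.61e-05). Both were highest on day 12, and the day 8 arrays lay close together. Prelp was 2.54-fold and Podn 2.49-fold higher (adjusted p = 0.0052 and 0.00507), and the fifth was Ecm2. The count lay between 4 and 6 without any one of the 5 arrays.

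Of 44 fibroblast matrix proteins 3 rose and 0 fell, with a median of 0.33, and 10 rose and 1 fell with the block. Dpt, dermatopontin, read 11.64, 11.24 and 12.25 late, against 9.87 and 9.49 on day 5, 4.09-fold higher (adjusted p = 0.0209). Mfap2, of elastic microfibrils, was 2.29-fold and Fbln1, fibulin 1, 2.25-fold higher (adjusted p = 0.0263 and 0.037). The main collagen genes Col1a1, Col1a2 and Col3a1 differed by 0.34, 0.34 and 0.52 and did not pass. Collagen processing enzymes rose in 3 of 23 genes: P4ha3, a prolyl 4-hydroxylase subunit (1.71-fold), Crtap (1.51-fold) and P3h3 (1.44-fold), both of prolyl 3-hydroxylation, with adjusted p of 0.0379, 0.0078 and 0.0331. Among 24 matrix proteases and inhibitors Reck, a membrane-bound inhibitor, was 2.18-fold and Mmp23 2.04-fold higher (adjusted p = 0.0146 and 0.00769), and 5 rose with the block. Without day 12, and without day 5 replicate 1, 0 of the matrix proteins, 1 of the processing enzymes and 0 of the proteases and inhibitors passed. Without day 5 replicate 2 these counts were 0, 1 and 1.

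Wnt signalling genes that rose included secreted inhibitors and a receptor. Of 36 measured genes 6 rose and 0 fell (Sfrp4, Sfrp1, Lgr5, Dkk2, Wnt16 and Axin2), with a median of 0.36. Sfrp4, a secreted protein that binds Wnts, read 10.69 and 9.74 on day 8 and 10.63 on day 12, against 8.20 and 7.47 on day 5, 5.72-fold higher late (log2 2.52 ± 0.41 SE, adjusted p = 0.00406). Sfrp1, of the same family, read 11.81, 10.98 and 12.18 late, against 9.78 and 9.28 on day 5, 4.36-fold higher (adjusted p = 0.00566). Lgr5, the receptor of R-spondins, read 9.24, 10.11 and 10.87 late, against 7.51 and 8.44 on day 5, 4.27-fold higher (adjusted p = 0.00339). Lgr5 had its higher arrays in replicate 2, the reverse of Sfrp4 and Sfrp1. Dkk2, a Wnt antagonist, was 1.88-fold higher (adjusted p = 0.0443). Axin2, which Wnt signalling itself induces, differed by 0.53. The count was 11 without day 8 replicate 2, 3 without day 12, 2 without day 5 replicate 1 and 3 without day 5 replicate 2.

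Igf1, insulin-like growth factor 1, read 10.34 and 9.60 on day 8 and 10.55 on day 12, against 8.64 and 7.89 on day 5, 3.73-fold higher late (log2 1.90 ± 0.36 SE, adjusted p = 0.00941). Its binding proteins Igfbp4 and Igfbp3 were 3.31-fold and 2.54-fold higher (adjusted p = 0.0404 and 0.0395), and 3 of 17 genes of this system rose with 0 falls. Without day 5 replicate 2, 0 of them passed, and 1 passed without day 5 replicate 1, day 8 replicate 1 or day 12. Penk, which encodes the enkephalin precursor, read 10.16, 8.46 and 10.23 late, against 7.34 and 6.43 on day 5, 6.65-fold higher (adjusted p = 0.00944). Chl1, a cell adhesion molecule of the L1 family, read 9.73, 9.0 and 10.08 late, against 7.03 and 7.50 on day 5, 5.04-fold higher (adjusted p = 0.00965). Lysosomal genes rose in 4 of 39: the cathepsins Ctsf (1.98-fold) and Ctsh (1.87-fold), and the glycosidases Fuca1 (1.46-fold) and Man2b1 (1.39-fold), with adjusted p of 0.00466, 0.00462, 0.0206 and 0.045. The block gave 7, while 2 passed without day 12 or day 5 replicate 2 and 0 without day 5 replicate 1.

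Several groups showed few or no calls. Of 33 contractile and serum response genes 0 passed, with a median of -0.33. Relative to day 5, their median was -0.63 in day 8 replicate 1, 0.20 in day 8 replicate 2 and -0.32 on day 12. Without day 8 replicate 2 the median was -0.57, so its size depends on which day 8 array is used. Of 38 genes of oxidative phosphorylation 0 passed, with a median of -0.22, and 6 fell with the block. Of 37 genes of TGF-beta and BMP signalling 0 passed, and 3 rose with the block. In glycolysis 1 of 19 rose, the lactate transporter gene Slc16a1 (2.16-fold, adjusted p = 0.0133), and 1 fell, the aldolase gene Aldoa (1.40-fold lower late, adjusted p = 0.00965), and the block gave 2 and 5. Ebp, a sterol isomerase, was the single rise among 20 cholesterol synthesis genes (1.55-fold, adjusted p = 0.0212), and Lpl, lipoprotein lipase, among 32 genes of lipid storage (2.54-fold, adjusted p = 0.023), where the block gave 2 higher and 1 lower. Twist2 was the single call among 36 mesenchymal transcription factors, 1.51-fold lower late (adjusted p = 0.0414), and the block gave 1 higher and 1 lower.

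Among markers of other cell types single genes were called. Cd14, the lipopolysaccharide co-receptor, read 7.63, 6.33 and 7.27 late, against 6.23 and 5.46 on day 5 (2.35-fold, adjusted p = 0.0368), as the only call among 27 macrophage markers. Of the markers of cartilage and bone, Comp was 3.34-fold and Mgp 3.57-fold higher (adjusted p = 0.0167 and 0.0432). Of those of smooth muscle and pericytes, Kcnj8 was 1.57-fold and Abcc9 1.51-fold higher (adjusted p = 0.00769 and 0.0223). Most of that list went the other way, with 12 of its 16 values negative, 4 positive and a median of -0.08. The endothelial marker Emcn, the neural progenitor marker Nes and the transferrin receptor gene Tfrc were 1.37-fold, 2.01-fold and 2.36-fold lower late (adjusted p = 0.0419, 0.0133 and 0.04). No list of another cell type had more than 2 calls.

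**Figure D4:**
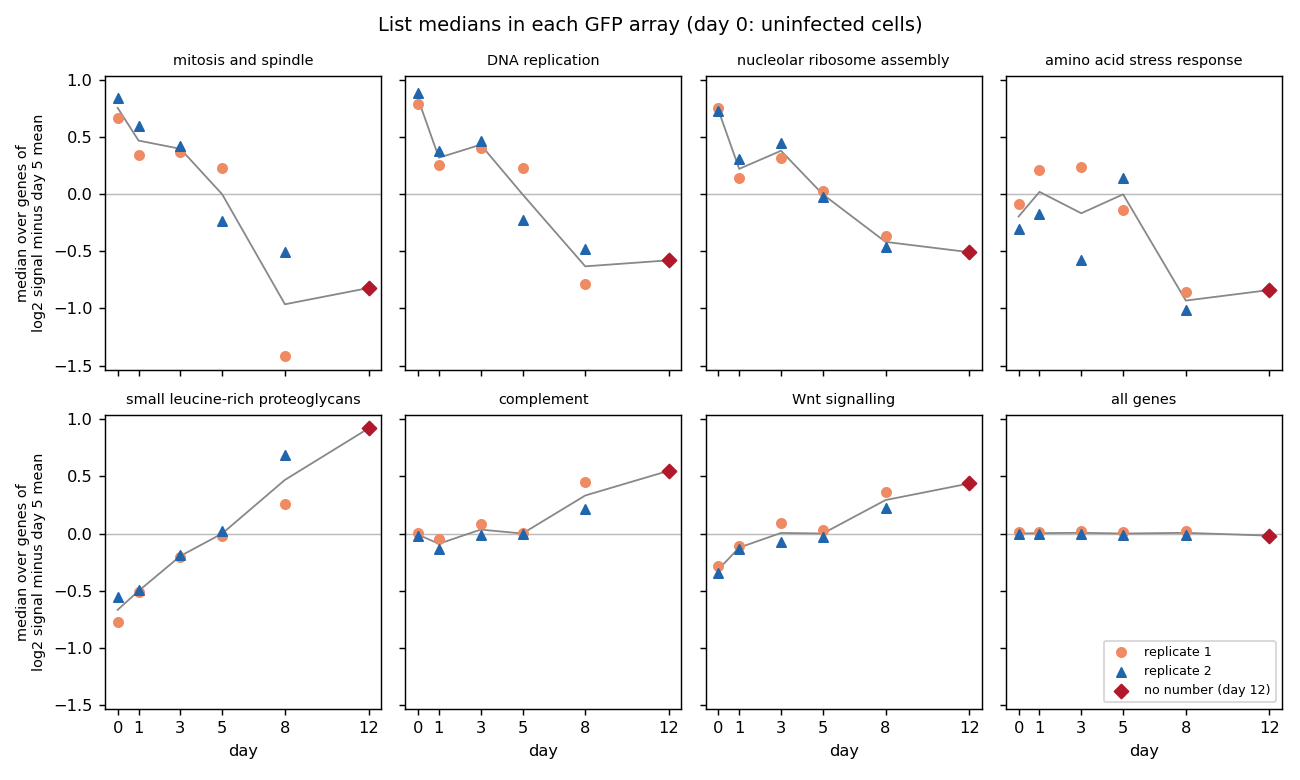
Median over the genes of each list of the log2 signal minus the gene's day 5 mean, in each GFP array from day 1 to day 12 and in uninfected MEFs at day 0, with a line through the mean of each day. The mitosis median lies between 0.34 and 0.85 from day 0 to day 3 and at or below -0.51 on days 8 and 12, while the list of leucine-rich proteoglycans goes up from -0.78 and -0.56 on day 0 to 0.92 on day 12.

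In the whole course some of these lists had moved the same way before day 5. Relative to day 5, the median of the mitosis genes was 0.67 and 0.85 in uninfected MEFs at day 0, 0.35 and 0.59 in GFP cells on day 1, 0.37 and 0.42 on day 3, -1.42 and -0.51 on day 8 and -0.82 on day 12. The nucleolar genes had 0.76 and 0.73 on day 0, 0.14 and 0.31 on day 1, 0.32 and 0.45 on day 3, -0.37 and -0.46 on day 8 and -0.51 on day 12. The leucine-rich proteoglycans went the other way, at -0.78 and -0.56 on day 0, -0.51 and -0.50 on day 1, -0.20 and -0.19 on day 3, 0.26 and 0.68 on day 8 and 0.92 on day 12. Amino acid stress genes showed no such course: their medians were -0.09 and -0.30 on day 0, 0.21 and -0.17 on day 1, 0.24 and -0.57 on day 3, and -0.85, -1.01 and -0.84 on days 8 and 12. Asns averaged 10.90, 11.07 and 10.89 on days 0, 1 and 3, near its day 5 values. Serpina3n averaged 5.86, 6.15 and 9.38 on these days, and Kera 5.13, 5.04 and 5.47, so that Serpina3n was already high on day 3 and Kera was not. Penk averaged 8.09, 8.60 and 8.50 on days 0, 1 and 3, above both of its day 5 arrays, so its late rise started from a lower day 5. Angptl7 averaged 7.40, 7.60 and 8.68 on these days, so its late values lay near those of days 0 and 1. Penk and Angptl7 were picked here after their values were seen. These courses were not tested.

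Day 12 was set beside day 8 without a test, since it has 1 array. By the rule of a 2-fold difference from the day 8 mean with day 12 outside both day 8 arrays, 80 genes (0.401%) differed, 43 above day 8 (0.216%) and 37 below (0.186%). Upward, the 5 largest differences were in Kera, Cpxm2, Tnn, Cfb and Fmod. Kera read 10.41 on day 12, against 8.22 and 7.73 on day 8. Cpxm2, a carboxypeptidase-like secreted protein, read 10.83, against 8.47 and 9.18. Tnn, tenascin N, read 10.28, against 7.31 and 9.60, and Fmod, the leucine-rich proteoglycan fibromodulin, read 10.70, against 8.78 and 9.30. Downward, the largest were Nr4a1, Dusp6, Errfi1, Ereg and Olr1, and Dusp6, a phosphatase induced by ERK signalling, read 5.73 on day 12, against 7.17 and 8.51 on day 8. In all 5 day 8 replicate 2 was the higher day 8 array. Without day 8 replicate 2 the rule gave 90 genes above and 28 below, and without replicate 1 it gave 86 above and 145 below.

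Some genes changed differently in cells with the 4 factors over the same days. The change from day 5 to day 8 in GFP cells minus that in 4F cells passed the test for 34 genes (0.171%), 15 (0.0752%) with the higher change in GFP cells and 19 (0.0953%) with the lower, and for 97 with the block. The median 4F change of the 292 genes that rose in GFP cells was 0.02, and that of the 418 genes that fell was -0.13. In 4F cells 41 genes (0.206%) were called between day 8 and day 5, 35 higher (0.176%) and 6 lower (0.0301%). Il33 changed by 2.90 in GFP cells and 0.11 in 4F cells, a difference of 2.79 (adjusted p = 0.025). Kera changed by 2.18 in GFP cells and -0.08 in 4F cells, a difference of 2.26 (adjusted p = 0.0013). Epyc, Tifa, an adaptor of NF-kB signalling, and Prr16 had differences of 1.51, 1.56 and 1.52 (adjusted p = 0.034, 0.0013 and 0.0054). In these 5 genes both GFP replicates went up by more than 1.1 and the 4F changes lay within 0.3 of 0. In the 4F arrays of both days Il33 read 5.21 to 5.59, Kera 5.18 to 5.30 and Epyc 4.84 to 5.02. These signals are low, under the median gene over all 31 arrays at 6.37, so a small 4F change there does not show steady expression.

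In the 5 genes with the lowest difference the GFP cells changed little and the 4F cells rose. Slc16a3, the lactate exporter of glycolytic cells, read 6.87 and 6.77 on day 8 and 7.06 and 6.55 on day 5 in GFP cells. Its change of 0.02 in GFP cells, against 3.29 in 4F cells, gave a difference of -3.27 (adjusted p = 0.0064). Bnip3, a mitochondrial protein induced by hypoxia, changed by -0.13 in GFP cells and 2.80 in 4F cells, a difference of -2.93 (adjusted p = 3.5e-05). Ndufa4l2, Trh and Egln3 had differences of -2.65, -2.54 and -1.88 (adjusted p = 0.0027, 0.013 and 0.013), with GFP changes of 0.38, -0.20 and 0.17. Of 19 glycolysis genes 6 were among the 34 (10 passed with the block), Aldoa with a difference of -1.33 (adjusted p = 0.00069). Of the 62 mitosis, 45 replication, 29 amino acid and 51 nucleolar genes 0 were among the 34. With the block the counts were 0, 1 (Mcm7), 3 (Mthfd2, Shmt2 and Sesn2) and 1 (Polr1c, picked after its value was seen), each with the lower change in GFP cells. Mthfd2 had a difference of -1.76 (adjusted p = 0.121, and 0.0319 with the block) and Mcm7 one of -0.98 (adjusted p = 0.143, and 0.0444 with the block). The difference for Asns was -1.79 (adjusted p = 0.11). The median 4F changes of the 4 lists were -0.21, -0.17, 0.15 and -0.17. Without any one of the 8 arrays the count lay between 11 and 167, the highest without GFP day 8 replicate 2 and the next, 154, without 4F day 8 replicate 1.

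**Figure D5:**
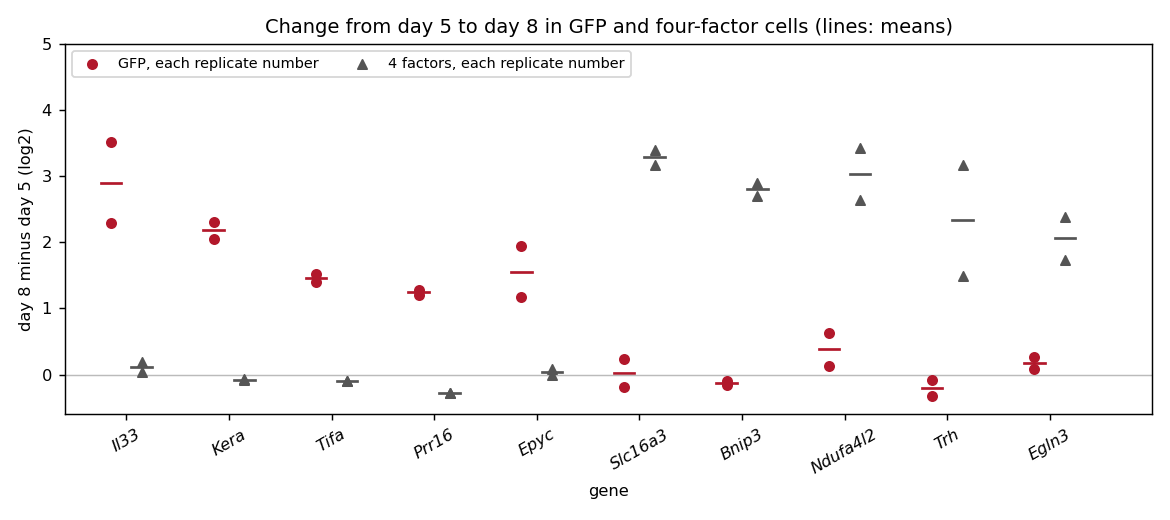
Change from day 5 to day 8 (log2, vertical axis) in GFP cells (circles) and 4F cells (triangles) for the 10 named genes whose changes differed, 1 point per replicate number and a line at the mean. Il33 to Epyc moved in GFP cells (Il33 by 2.90), and Slc16a3 to Egln3 in 4F cells (Slc16a3 by 3.29).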

How the data were processed

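RNA of 31 cultures was measured on single-colour Affymetrix arrays. Per the labels' protocols, total RNA was extracted with on-column DNase treatment, and biotinylated targets were made with the whole transcript sense target assay from 120 ng (replicate 1) or 300 ng (the others). The authors deposited a table of log2 signals per probe set and array, from 4.27 to 14.33 with array medians of 6.04 to 6.17. How the authors normalized is not stated in the labels or files. The values were used as deposited.

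Of 28853 rows 21789 had 1 gene symbol in GEO's platform annotation, 1621 several and 5443 none, and only the first kind was used. For 999 of the 19938 genes several rows competed, and the brightest on average was taken. Entrez IDs of 21698 rows were found in RefSeq's gene table and their symbols updated. Group means were fitted across the 31 arrays with limma 3.58.1 in R 4.3.3 (12 residual degrees of freedom, 2.68 prior), and calls required an adjusted p (Benjamini-Hochberg, all genes) under 0.05. The late mean gives each of the 3 arrays equal weight, so day 12, a single array, is assumed to vary like the replicated groups. The labels call the replicates biological without naming embryos or cultures, so the p-values measure the spread between these arrays. The number of arrays limits the precision.

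Replicate numbers mark a shared labelling input per the labels and were taken to pair arrays. The block set replicate 2 against all other arrays. Arrays without a number, day 12 among them, were thus placed with replicate 1, although they were labelled from 300 ng like replicate 2. As a check, replicate differences of the 12 numbered groups correlated across genes at r = 0.0808 to 0.686 in 66 pairs (median 0.32, 65 over 0.1), and at 0.325 for GFP days 5 and 8. The 2 arrays of a group correlated at 0.99 on day 5 and 0.978 on day 8 (0.974 to 0.993 over the groups). The fit was also run on simulated arrays with known changes. For the late comparison it called 24 of 50 genes changed by a log2 of 0.5 and 45 of 50 changed by 1, with 9 false calls. The simulated noise was independent between arrays and lacked the shared replicate differences above. That run therefore cannot tell how the calls hold in data with such differences.

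The comparison, the 26 program lists and 12 cell type lists (1028 of 1130 entries measured) and the alternatives were chosen with earlier results of these data known. Named are the 12 largest rises and falls whose late arrays lie beyond both day 5 arrays, up to 4 called members of each list (2 in the minority direction), the 5 largest each way of day 12 against day 8 and of the difference to 4F cells, and called markers of cell types. Lists are described by counts and medians, with no list test. Alternatives were the replicate block, quantile normalization, a filter on dim genes, all rows, a trend in the spread, other sets of arrays or weights, a 2-fold minimum and leaving out each array.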

Additional observations from a re-analysis of the deposited data

Results flagged for a closer look

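The change of GFP cells from day 5 to day 8 differed from that of 4F cells over the same days, by a test of the difference itself, in 34 genes (0.171% of those tested). The difference in log2 change, GFP minus 4F, was 2.79 for Il33, 2.26 for Kera, 1.56 for Tifa, 1.52 for Prr16 and 1.51 for Epyc, genes that rose in GFP cells. It was -3.27 for Slc16a3, -2.93 for Bnip3, -2.65 for Ndufa4l2, -2.54 for Trh and -1.88 for Egln3, where the 4F cells rose. All 10 kept their calls with the replicate block and after quantile normalization. Without 4F day 5 replicate 2, 4 of the 10 did not pass (Il33, Epyc, Trh and Egln3), and without GFP day 8 replicate 2 all 10 passed.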

How the results depend on the processing

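Of the 79 genes named for days 8 to 12 against day 5, all kept their direction under every alternative run for them, all 79 passed with the replicate block, 75 after quantile normalization (not Mcm2, Mcm6, Utp20 and Twist2) and from 30 (without day 5 replicate 1) to 77 (without day 8 replicate 2) with 1 array left out. The count of 710 genes was 1525 with the replicate block, 660 after quantile normalization (325 higher, 335 lower), 171 with a 2-fold minimum, 60 from the 9 GFP arrays alone and 0 from the 5 compared arrays alone, where 2806 genes had an unadjusted p under 0.05. Leaving out 1 array it lay between 168 and 918. The 333 genes of day 8 against day 5 were 885 with the replicate block, 95 with a 2-fold minimum, 1 from the 9 GFP arrays and 56 to 635 with 1 array left out. The 34 genes of the difference from 4F cells were 97 with the replicate block, 20 among genes at or above the median signal and 11 to 167 with 1 array left out. The 80 genes of day 12 against day 8 were 118 and 231 with 1 day 8 array left out. The other alternatives stayed within 1.5 times of each count. Among all 94 named genes the block added 9 calls of the difference from 4F cells (Serpina3n, Ifi205, Mthfd2, Shmt2, Mcm7, Sesn2, Crtap, Ebp and Lgr5) and the late call of Fmod, and it took away no call of these 2 comparisons. The fits of fewer arrays have fewer degrees of freedom for the spread, and the fit of the 5 arrays holds the change from day 8 to day 12 in its spread. Where a left-out array leaves 1 per group, that array is assumed to vary like the other groups. The cause of the other movements was not tested.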

Other observations

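Immediate-early and growth signalling genes in the GFP day 8 arrays, picked after their values were seen, showed the distance between the replicates. Fosb read 5.55 in day 8 replicate 1 and 8.56 in day 8 replicate 2, 5.84 on day 12, and 5.52 and 5.80 on day 5. Egr2 read 6.15 and 9.11 on day 8, 5.81 on day 12, and 5.91 and 5.85 on day 5. The ErbB ligand genes Hbegf and Ereg read 10.29 and 10.15 in day 8 replicate 2, against 6.79 and 6.82 in replicate 1. In the 4F cells of day 8 Fosb read 5.52 in replicate 1 and 7.94 in replicate 2, and Egr2 read 5.51 and 8.46, so that replicate 2 was the higher array in both arms. In the other direction Hp, the acute phase protein haptoglobin, read 10.70 in day 8 replicate 1 and 7.23 in replicate 2, and Mmp3, a matrix protease, read 12.47 and 9.82. On day 5 replicate 2 was also the lower array for both, at 5.87 against 8.72 for Hp and 8.78 against 10.78 for Mmp3.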
